A study of Rorippa islandica and Rorippa pyrenaica with 24 samples.

Results

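Young leaves of *Rorippa islandica*, a diploid wetland species of the Brassicaceae that tolerates flooding, were compared after 48 h of complete submergence with leaves of plants kept in air for the same time. Of the 24 libraries of the series, 6 belong to this comparison, and they were taken by their labels: 3 from submerged plants and 3 from control plants. The other libraries are *R. islandica* at 24 h and the less tolerant *R. stylosa* at 48 and 24 h, each with its own submerged and control plants. The labels give no mutation or transgene for any group. Plants of *R. islandica* were raised from seed and grown on soil under short days, and the treated ones spent both day and night fully under water without a change in the light regime. Polyadenylated RNA was sequenced, and the counts summed over isoforms were 26787859, 33870276 and 37449045 in submerged libraries, against 27908333, 39205399 and 33045347 in control libraries.

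Water slows the diffusion of gases into leaves, so that a submerged leaf takes up less carbon dioxide in the light and less oxygen in the dark, and traps the gaseous hormone ethylene. In *Arabidopsis*, low oxygen, ethylene and low sugar each set off large changes in transcript levels, through transcription factors of the ERF-VII group, the EIN3 family and kinases of the SnRK1 type, among others. The count files identify each gene by its *R. islandica* identifier and by its orthogroup, a set of genes of several species that descend from a single ancestral gene. They pair no identifier with a gene name or function, so that genes are described here by identifier, orthogroup and coding length, and the labelled tissue could not be set against marker genes. In these bulk samples, less RNA per cell and fewer cells of a type cannot be told apart.

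Submergence changed the leaf transcriptome widely, with nearly as many genes upregulated as downregulated. Of 30646 genes, 4665 had no count in any of the 6 libraries, 5372 had counts that were too low for the test, with at most 230 over all 6 libraries, and 20609 were tested. A gene was called differentially expressed (DEG) when its change exceeded a log2 fold change of 1 in either direction in edgeR's quasi-likelihood test with that threshold, at a Benjamini-Hochberg adjusted p under 0.05. By this rule 2583 genes (12.5% of those tested) were upregulated and 2781 (13.5%) were downregulated, 5364 (26.0%) in all. Against no change at all, 7689 genes (37.3%) were higher and 7326 (35.5%) were lower under water, which is 72.9% of all tested genes. Levels are given as CPM, counts per 1000000 counts of the TMM-adjusted library, which are not adjusted for gene length.

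The changes were wide and nearly symmetric. Over all tested genes the log2 fold change had a median of 0.02 and an SD of 1.76, and 90% of the genes lay between -2.80 and 2.59. The upregulated genes had a median log2 fold change of 2.22, with the middle 50% between 1.62 and 3.37, and the downregulated genes had a median of -2.29, with the middle 50% between -3.41 and -1.69. Of the upregulated genes, 1485 (57.5%) exceeded a log2 fold change of 2, 433 exceeded 4 and 42 exceeded 8. Of the downregulated genes, 1671 (60.1%) went beyond -2, 453 beyond -4 and 43 beyond -8. A point estimate beyond 1 without a call was found for 1029 genes that were higher and 1238 genes that were lower. Scaling by total counts alone, in place of TMM factors, moved the median of all genes to 0.21, and 57.7% of the called genes were then upregulated, where 48.2% were with TMM, so that which direction held more genes depended on the scaling.

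**Figure D1:**
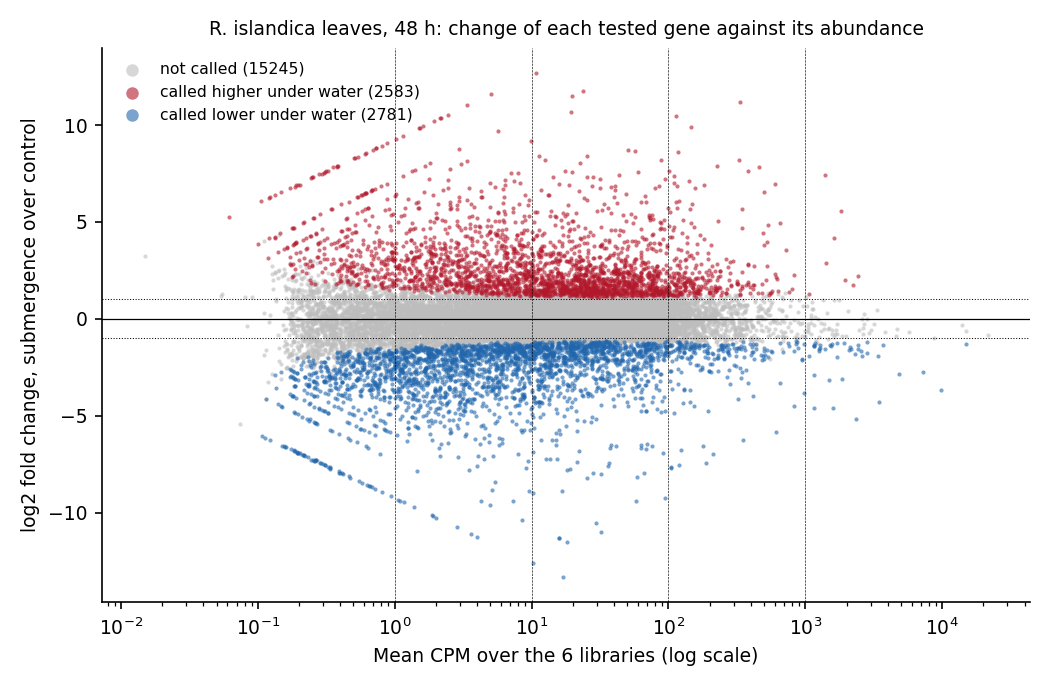
Each point is a tested gene, with its mean CPM over the 6 libraries of 48 h on the x axis (log scale) and its log2 fold change of submergence over control on the y axis. The 2583 upregulated genes (red) and the 2781 downregulated genes (blue) lie beyond the dotted lines at a log2 fold change of 1 and -1, the slanting rows of points at low CPM are genes with no or very few counts in the group where they were lower, and the dashed lines mark the abundance classes.

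The calls rarely rested on overlapping groups. All 3 submerged libraries lay above all 3 control libraries for 8090 tested genes (39.3%) and below them for 7526 (36.5%), 75.8% in all. Among the DEGs the groups overlapped for only 3 upregulated and 3 downregulated genes, which are named here after their values were seen. The upregulated ones were Roisl.0003s0264, Roisl.0046s0970 and Roisl.0101s0007. Submerged replicate 1 carried the first and the last of these: Roisl.0003s0264 had 27.3, 0.325 and 0.261 CPM in submerged libraries, against 0.328, 0.189 and 0.284 CPM in controls, and Roisl.0101s0007 had 33.5, 0.0271 and 0.143 CPM in submerged libraries, against 0.328, 0.216 and 0.221 CPM in controls. The downregulated ones were Roisl.0028s0361, Roisl.0210s0210 and Roisl.0214s0524. Roisl.0210s0210 had 69.0, 46.2 and 37.9 CPM in submerged libraries, against 68.7, 250.8 and 277.5 CPM in controls, so that control replicate 1 lay among the submerged libraries. In all, 6 genes reached at least 1 CPM and 10 times the next replicate in submerged replicate 1, 3 of them called, and each of the other 5 libraries held at most 1 such gene and no called one. Leaving out any of the 6 libraries in turn, 4525 of the 5364 DEGs (84.4%) were called each time.

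The share of genes that changed differed between abundance classes, most of all at the top. Genes were classed by their mean CPM over the 6 libraries, which orders them by counts and not by level per length. Of 2600 genes under 1 CPM, 305 (11.7%) were upregulated and 498 (19.2%) downregulated. Of 6911 genes at 1 to 10 CPM, 824 (11.9%) were upregulated and 1137 (16.5%) downregulated. These 2 low classes held more downregulated than upregulated genes. Of 9463 genes at 10 to 100 CPM, 1185 (12.5%) were upregulated and 914 (9.66%) downregulated, and of 1529 genes at 100 to 1000 CPM, 261 (17.1%) and 193 (12.6%) were. The order was thus turned in the middle classes. Of the 106 genes at 1000 CPM and more, only 8 (7.55%) were upregulated and 39 (36.8%) were downregulated, against 12.5% and 13.5% of all tested genes. With total counts alone as scaling, the class at 1 to 10 CPM held 976 upregulated and 967 downregulated genes, while the class under 1 CPM kept more downregulated (436) than upregulated (357) genes and the class at 1000 CPM and more still had 10 upregulated and 31 downregulated genes.

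Changes and their errors were largest among genes of low abundance. The SD of the log2 fold change was 2.44 under 1 CPM, 1.86 at 1 to 10 CPM, 1.43 at 10 to 100 CPM, 1.68 at 100 to 1000 CPM and 1.73 at 1000 CPM and more, and the median SE of a fold change in these classes was 0.46, 0.19, 0.10, 0.11 and 0.11. Upregulated genes under 1 CPM had a median log2 fold change of 3.45, against 1.95 at 100 to 1000 CPM, and downregulated genes had -3.13 and -1.69 in the same classes. A gene of low count had to change more to be called, so these medians describe the called genes and not their classes. Classing the genes by their CPM at 24 h, in libraries that the contrast does not use, gave 7.76% upregulated and 36.2% downregulated genes in the top class.

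**Figure D2:**
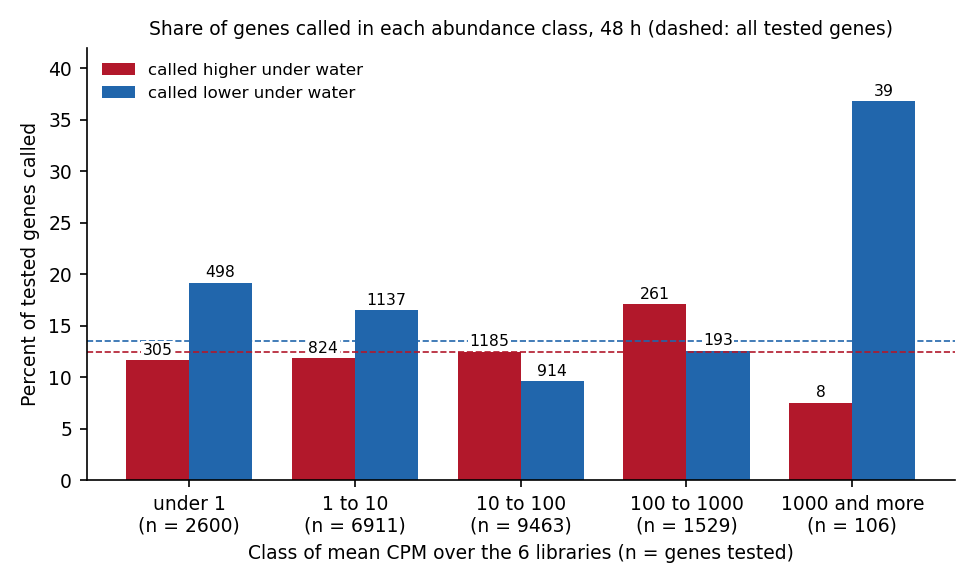
Bars show the percent of tested genes that were called higher (red) or lower (blue) under water in each class of mean CPM, with the number of genes above each bar and the percent over all tested genes as dashed lines in the same colours. The class at 1000 CPM and more stands out with 39 downregulated and 8 upregulated genes of 106.

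The most counted genes held a smaller share of the counts in submerged leaves than in leaves in air. The 100 most counted genes of each library held 24.2, 22.3 and 22.4% of its counts in submerged libraries, against 33.5, 35.4 and 35.2% in controls. The number of genes that together held 50% of the counts was 790, 880 and 903 in submerged libraries, against 428, 376 and 378 in controls, a mean of 858 ± 59.7 against 394 ± 29.5 (SD, n = 3 each). At 1000 CPM or more stood 92, 83 and 79 genes in submerged libraries, against 114, 119 and 118 in controls. Counts were thus more even among the top genes. The number of genes that held 90% of the counts was also higher, at 6845, 6957 and 7121 in submerged libraries, against 6435, 6203 and 6293 in controls. Yet fewer genes reached 1 CPM, with 17306, 17242 and 17389 in submerged libraries, against 17679, 17604 and 17683 in controls. The groups did not overlap in any of these measures, and each of the first 3 gave p = 0.1 in a two-sided exact permutation test, the smallest that 3 against 3 libraries allow.

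Among the 100 most counted genes in air, 50 were downregulated, 50 were not called and 0 were upregulated, with a median log2 fold change of -1.18. Since those genes were chosen for high counts in the control libraries, the same was done with the control libraries of 24 h, which are not in the contrast. Again 0 were upregulated and 50 downregulated, with a median of -1.21. These are leaves in air too, so that this choice still favours genes that are high in air. Of the 100 most counted genes under water, 23 were upregulated, 18 downregulated and 59 not called, with a median of -0.25. The 100 most counted genes under water shared 58 genes with those in air, and of these 58, 18 were downregulated. Of the 42 that were in the top 100 only under water, 23 were upregulated and 0 downregulated. Those 42 were picked by the libraries of the contrast, so that the absence of downregulated genes among them follows from the choice. Of all tested genes, 12.5% were upregulated and 13.5% downregulated. The upregulated genes together took 19.9, 22.4 and 20.8% of the counts in submerged libraries, against 3.87, 4.26 and 4.10% in controls, and the downregulated genes took 8.84, 7.95 and 8.58% in submerged libraries, against 30.3, 28.7 and 28.8% in controls. These shares describe genes chosen by the same libraries.

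**Figure D3:**
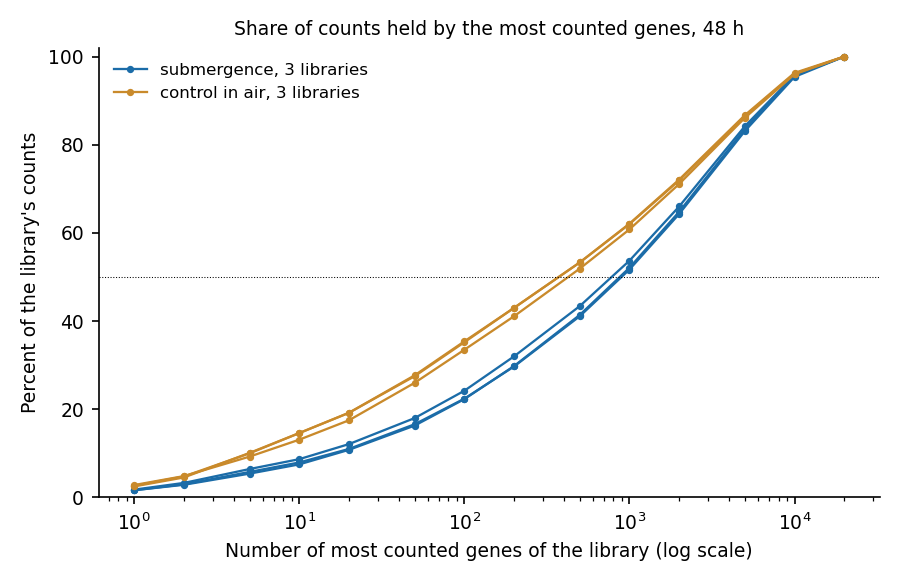
The percent of a library's counts (y axis) held by its most counted genes is plotted against the number of those genes (x axis, log scale), with a line for each of the 3 submerged (blue) and 3 control (orange) libraries. The submerged lines run below the control lines up to 10000 genes and cross 50% (dotted) at 790 to 903 genes, against 376 to 428 genes in controls.

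Replicates of both groups were tight. The SD of the log2 CPM between the 3 replicates had a median over genes of 0.134 in submerged libraries and 0.166 in control libraries, and it was the higher under submergence for 41.3% of genes. In the class at 1000 CPM and more this was turned, with medians of 0.131 in submerged and 0.0995 in control libraries and a higher SD under submergence for 67.9% of genes. Changes beyond the threshold were also found in genes of every length: 26.6% of genes with a coding length under 600 bases and 19.6% of those of 3000 bases and more were called.

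The largest increases among genes with at least 4 counts in the lower group led to transcripts that were next to absent in air. Roisl.0019s0014 (OG0026693, coding length 465 bases) had 567, 851 and 579.5 CPM in submerged libraries, against 0.146, 0.379 and 0.284 CPM in controls, with a log2 fold change of 11.20 ± 0.47 (SE; adjusted p = 4.63e-09). Its 5 non-whole counts in 6 libraries show that part of its reads was shared with other transcripts. Roisl.0018s0124 (OG0016626, 1749 bases) had 199.1, 288 and 199.8 CPM in submerged libraries, against 0.365, 0.0270 and 0.126 CPM in controls, with a log2 fold change of 10.48 ± 0.60 that became 11.55 without control replicate 1 and 9.89 without control replicate 2. Roisl.0002s0264 (OG0009285, 582 bases) had 349, 287 and 244.5 CPM in submerged libraries, against 0.109, 0.216 and 0.569 CPM in controls, with a log2 fold change of 9.91 ± 0.38 (10.72 without control replicate 3). In each of these 3 genes the submerged libraries were close to each other and far above every control.

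The next 3 genes were of the same kind. Roisl.0091s0971 (OG0018508, 1110 bases) had 79.1, 115.8 and 108.3 CPM in submerged libraries, against 0.292, 0.298 and 0.126 CPM in controls, with a log2 fold change of 8.70 ± 0.49. Roisl.0002s0138 (OG0005273, 585 bases) had 90.02, 135.8 and 114.7 CPM in submerged libraries, against 0.109, 0.216 and 0.506 CPM in controls, with a log2 fold change of 8.64 ± 0.52 (9.35 without control replicate 3). Roisl.0044s0042 (OG0009562, 1041 bases) had 223, 248 and 227 CPM in submerged libraries, against 0.365, 0.784 and 0.601 CPM in controls, with a log2 fold change of 8.59 ± 0.26. Among these 6 genes Roisl.0044s0042 had the smallest error of its fold change.

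The largest decreases mirrored this, with transcripts that were well counted in air and almost gone under water. Roisl.0074s0308 (OG0001540, 1077 bases) had 0.0352, 0.0812 and 0 CPM in submerged libraries, which is 4 counts in all, against 52.8, 69.4 and 56.0 CPM in controls, with a log2 fold change of -10.52 ± 0.35 (-11.73 without submerged replicate 2 and -9.85 without submerged replicate 3). Roisl.0044s0026 (OG0013812, 1104 bases) had 0.211, 0.0541 and 0.238 CPM in submerged libraries, against 118.5, 132 and 97.5 CPM in controls, with a log2 fold change of -9.41 ± 0.26. Roisl.0004s0432 (OG0012071, 306 bases) had 0.176, 0.406 and 0.309 CPM in submerged libraries, against 163, 222 and 185 CPM in controls, with a log2 fold change of -9.26 ± 0.34. All 3 had adjusted p values of 1.50e-09 or lower.

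For the next 3 the low level under water rested on very few counts. Roisl.0019s0508 (OG0004268, 1128 bases) had 4 counts over the submerged libraries, against 1896 over the controls, where it stood at 25.2, 13.4 and 22.5 CPM, a log2 fold change of -8.97 ± 0.60 (-10.09 without submerged replicate 3). Roisl.0018s0010 (OG0003235, 771 bases) had 7 counts over the submerged libraries, against 3135 over the controls, which stood at 29.9, 21.2 and 48.4 CPM, a log2 fold change of -8.91 ± 0.71 (-9.65 without submerged replicate 1 and -8.22 without submerged replicate 3). Roisl.0012s0322 (OG0005727, 1674 bases) had 4 counts over the submerged libraries, all of them in replicate 1, against 1855 over the controls, which stood at 11.7, 18.8 and 26.6 CPM, a log2 fold change of -8.87 ± 0.63 (-8.2 without submerged replicate 3). Without submerged replicate 1 it had 0 counts under water and was at least 509-fold lower. Control libraries varied more in these 3 genes than in the 3 before, yet each of them lay far above every submerged library.

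**Figure D4:**
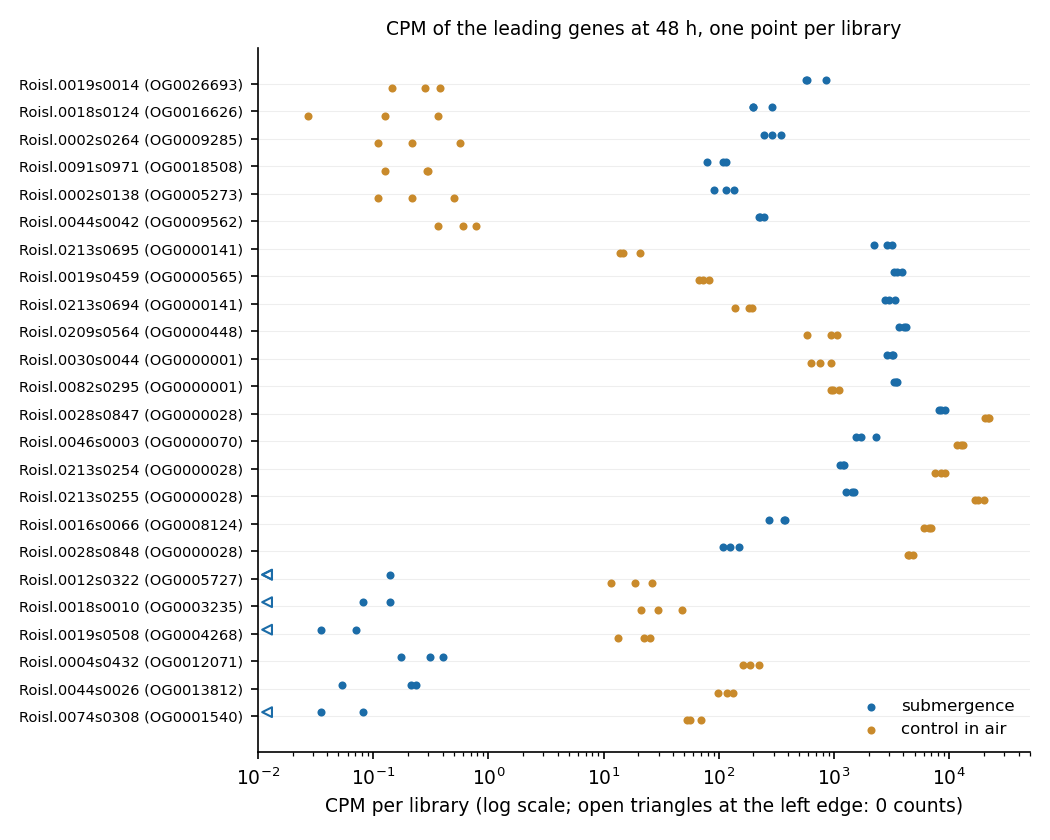
Each row is a gene with its orthogroup, sorted by log2 fold change, and each point is the CPM (x axis, log scale) of a library, with 3 submerged (blue) and 3 control (orange) libraries a gene and open triangles at the left edge for libraries with 0 counts. The groups are apart in all 24 genes, which are the 6 with the largest fold change and the 6 with the largest difference in CPM in each direction.

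Some transcripts had no count at all in the group where they were lower. In 46 upregulated genes no control library had a count, and in 65 downregulated genes no submerged library had any, and a further 95 upregulated and 88 downregulated genes had 1 to 3 counts in the lower group. For genes at 0, the lowest fold that the depth allows is given, with 3 counts in the whole group taken as the limit of detection, which covers counting error only and stands at 0.0279 CPM under submergence and 0.0312 CPM in air. Roisl.0214s0556 (OG0000177), with 21.3, 25.8 and 17.7 CPM in submerged libraries against 0 in controls, was at least 686-fold higher, with counts that were not whole in 3 libraries. Roisl.0214s0243 (OG0019526), with 9.501, 12.07 and 8.84 CPM in submerged libraries against 0 in controls, was at least 324-fold higher, and Roisl.0007s0495 (OG0006438), with 3.03, 7.85 and 9.24 CPM in submerged libraries against 0 in controls, was at least 228-fold higher. These are the 3 with the highest CPM under water among such genes. Without control replicate 2 the limits were 422, 199 and 140 for Roisl.0214s0556, Roisl.0214s0243 and Roisl.0007s0495.

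On the other side, Roisl.0007s0494 (OG0002635) had 0 CPM in submerged libraries, against 26.4, 20.6 and 54.7 CPM in controls, and was at least 1200-fold lower under water. It is the neighbour in numbering of Roisl.0007s0495, which had moved in the opposite direction. Roisl.0016s0011 (OG0024495) had 0 CPM in submerged libraries, against 11.01, 10.82 and 39.22 CPM in controls, and was at least 724.5-fold lower. Roisl.0016s0067 (OG0015004) had 0 CPM in submerged libraries, against 9.12, 7.82 and 7.11 CPM in controls, and was at least 285-fold lower. Control replicate 3 was the highest control for Roisl.0007s0494 and Roisl.0016s0011, and without it the limit for Roisl.0016s0011 was 390. The limits for Roisl.0007s0494, Roisl.0016s0011 and Roisl.0016s0067 were 730, 441 and 173 without submerged replicate 3 and 788, 475 and 187 without submerged replicate 2, where fewer libraries raise the limit of detection.

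Ranked by the difference in CPM, other genes led, and some of them belonged to common orthogroups. Roisl.0019s0459 (OG0000565, 1086 bases), the only tested gene of its orthogroup, had 3553, 3868 and 3327 CPM in submerged libraries, against 68.0, 73.3 and 82.4 CPM in controls, with a log2 fold change of 5.59 ± 0.17. Roisl.0209s0564 (OG0000448, 963 bases) had 4022, 4257 and 3701 CPM in submerged libraries, against 581, 937.5 and 1053 CPM in controls, with a log2 fold change of 2.22 ± 0.23. Roisl.0209s0564 was thus already well counted in air, whereas Roisl.0019s0459 rose by a much larger factor.

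Both tested genes of OG0000141, which are neighbours in numbering, were upregulated. Roisl.0213s0695 (405 bases) had 3195, 2909 and 2214 CPM in submerged libraries, against 14.6, 13.9 and 20.9 CPM in controls, with a log2 fold change of 7.40 ± 0.23, the largest among genes at 1000 CPM and more. Roisl.0213s0694 (363 bases) had 2998, 3386 and 2759 CPM in submerged libraries, against 137.5, 182 and 195 CPM in controls, with a log2 fold change of 4.15 ± 0.15. Most counts of both were not whole, so the division of reads between them is uncertain. Their sum does not depend on that division and had 6195, 6304 and 4980 CPM in submerged libraries, against 152, 196 and 216 CPM in controls, with a log2 fold change of 4.95 ± 0.15.

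The last of the 6 largest increases in CPM were Roisl.0082s0295 (1374 bases) and Roisl.0030s0044 (1377 bases) of OG0000001. Roisl.0082s0295 had 3535, 3293 and 3456 CPM in submerged libraries, against 939, 1107 and 983 CPM in controls, with a log2 fold change of 1.76 ± 0.16. Roisl.0030s0044 had 3266, 3208 and 2902 CPM in submerged libraries, against 627, 944 and 751 CPM in controls, with a log2 fold change of 2.01 ± 0.14. Of the other genes of this orthogroup, Roisl.0012s0265 averaged 838 ± 11.6 CPM in submerged libraries and 310.4 ± 30.2 CPM in controls (SD, n = 3 each), a log2 fold change of 1.43 ± 0.10. Roisl.0079s0339 was called with a log2 fold change of 6.29 ± 1.68 but had 25.1, 0.298 and 0.380 CPM in submerged libraries, against 0.146, 0.0270 and 0.158 CPM in controls, and had 1.66 (adjusted p = 0.223) without submerged replicate 1. It was also not called without any 1 of the 3 controls. The last, Roisl.0006s0406, was not called at -0.57 ± 0.38.

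The largest decrease in CPM was shared by OG0000028, of which all 4 genes in the table were tested and downregulated. Roisl.0213s0255 (804 bases) had 1441, 1276 and 1484 CPM in submerged libraries, against 16630, 19990 and 17770 CPM in controls, with a log2 fold change of -3.69 ± 0.11. Its neighbour in numbering, Roisl.0213s0254 (804 bases), had 1208, 1135 and 1214 CPM in submerged libraries, against 9193, 8459 and 7592 CPM in controls, with a log2 fold change of -2.83 ± 0.12. The other 2 genes are neighbours of each other as well, but were lowered to very different degrees. Counts of Roisl.0213s0255, Roisl.0213s0254 and Roisl.0028s0848 were not whole in 3 libraries each, so that the division of their reads is uncertain.

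Roisl.0028s0848 (801 bases) had 109, 125 and 149 CPM in submerged libraries, against 4408, 4812 and 4517 CPM in controls, with a log2 fold change of -5.16 ± 0.19, the largest decrease among genes at 1000 CPM and more. Roisl.0028s0847 (804 bases) had 9252, 8234 and 8403 CPM in submerged libraries, against 20630, 21560 and 22030 CPM in controls, with a log2 fold change of -1.31 ± 0.11 (adjusted p = 0.00683). Among these 4 genes of nearly the same length it had the highest CPM in every library, and its call was lost when libraries were scaled by total counts alone (-1.13, adjusted p = 0.0958). The orthogroup as a whole had 12010, 10780 and 11270 CPM in submerged libraries, against 50770, 54810 and 51870 CPM in controls, with a log2 fold change of -2.21 ± 0.11 (adjusted p = 1.88e-07).

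OG0000070 holds 2 tested genes of the same coding length, 546 bases, which were lowered unequally. Roisl.0046s0003 had 2304, 1552 and 1731 CPM in submerged libraries, against 12720, 11660 and 13140 CPM in controls, with a log2 fold change of -2.75 ± 0.16. Roisl.0024s0094 had 16660, 14940 and 14470 CPM in submerged libraries, against 28590, 26500 and 27650 CPM in controls, with a log2 fold change of -0.84 ± 0.11 that did not pass the threshold of 1, although the groups did not overlap. Roisl.0024s0094 had the highest mean CPM of all genes over the 6 libraries, without regard to length. Roisl.0214s0332 (OG0011124, 3132 bases), the other uncalled gene among the 3 with the highest mean CPM, had 14380, 9361 and 11100 CPM in submerged libraries, against 15670, 19400 and 19150 CPM in controls, with a log2 fold change of -0.64 ± 0.21.

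Roisl.0016s0066 (OG0008124, 1005 bases) completes the 6 largest decreases in CPM, with 371, 273 and 372 CPM in submerged libraries, against 5998, 6653 and 6981 CPM in controls, with a log2 fold change of -4.27 ± 0.24. Its neighbour in numbering, Roisl.0016s0067, was the gene with 0 counts under water described above. Most downregulated genes at 1000 CPM and more moved less than these: 29 of the 39 had a log2 fold change between -1.95 and -1.18. Of the 8 upregulated genes in this class, those not yet described were Roisl.0074s0158 (OG0012996), with 2483 ± 232 CPM in submerged and 341 ± 71.7 CPM in control libraries, and Roisl.0024s0373 (OG0019591), with 1514 ± 113 CPM in submerged and 628 ± 81.5 CPM in control libraries (SD, n = 3 each).

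In the other abundance classes the leading genes were smaller in CPM. Under 1 CPM, Roisl.0210s1884 (OG0021902) had 0.809, 2.84 and 2.02 CPM in submerged libraries, against 0, 0.0270 and 0.0948 CPM in controls, with a log2 fold change of 5.41 ± 0.72 that rested on 4 control counts and became 6.68 without control replicate 3. Roisl.0039s0109 (OG0008194) of the same class had 4 counts in submerged libraries, all in replicate 3, against 2.37, 1.41 and 1.26 CPM in controls, with a log2 fold change of -5.38 ± 0.62 (at least 35.6-fold lower without submerged replicate 3). At these counts the direction was clear in every library, while the size of the fold was not. At 1 to 10 CPM, Roisl.0053s0369 (OG0016474) had 11.3, 19.8 and 11.3 CPM in submerged libraries, against 0.0729, 0 and 0.158 CPM in controls, with a log2 fold change of 7.53 ± 0.43 (6.86 without control replicate 2 and 8.68 without control replicate 3). At 100 to 1000 CPM, Roisl.0021s0238 (OG0002563, 1887 bases) had 0.985, 0.785 and 1.21 CPM in submerged libraries, against 209, 203.5 and 208 CPM in controls, with a log2 fold change of -7.69 ± 0.15 and the smallest adjusted p of the named genes (2.59e-11).

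Some orthogroups held several DEGs. Of 1368 orthogroups with at least 2 tested genes, 209 had at least 2 DEGs. In 100 of these all DEGs were upregulated, in 77 all were downregulated, and in 32 they went in both directions. Every tested gene was upregulated in 71 and downregulated in 63 orthogroups. Of 414 pairs of tested genes that follow each other in numbering within an orthogroup, 86 (20.8%) were called in the same direction, 8 (1.93%) in opposite directions and 27.3% in 1 gene only. Of 14931 neighbouring pairs from different orthogroups, 690 (4.62%) were called in the same direction, 449 (3.01%) in opposite directions and 36.0% in 1 gene only. Copies that share reads are counted in such pairs, and how much they add was not tested. When counts were summed over orthogroups before the test, 2305 were upregulated and 2504 downregulated of 18898, 25.4% in all.

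The orthogroup with the most upregulated genes, OG0000029, was also a mixed one. Of its 10 tested genes, whose identifiers all lie between Roisl.0209s0692 and Roisl.0209s0718, 6 were upregulated, 1 was downregulated and 3 were not called. Roisl.0209s0704 had 28.4, 34.2 and 27.9 CPM in submerged libraries, against 1.53, 2.19 and 1.71 CPM in controls, with a log2 fold change of 4.04 ± 0.29. Its neighbour Roisl.0209s0703 had a log2 fold change of 4.27 ± 0.27, and Roisl.0209s0702 had 84 counts over the submerged libraries, against 3 over the controls. Roisl.0209s0699 went the other way, with 1.48, 1.30 and 1.47 CPM in submerged libraries, against 5.87, 4.71 and 4.24 CPM in controls, with a log2 fold change of -1.80 ± 0.26. The sum over the orthogroup was upregulated, with 65.5, 74.8 and 68.8 CPM in submerged libraries, against 16.9, 19.4 and 19.1 CPM in controls, with a log2 fold change of 1.91 ± 0.10.

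In OG0000019, 5 of 8 tested genes were upregulated, but the sum of the orthogroup was not called (0.36 ± 0.06). Roisl.0024s0060 had 10.5, 16.7 and 14.04 CPM in submerged libraries, against 0.729, 1.24 and 1.39 CPM in controls, with a log2 fold change of 3.60 ± 0.33. Roisl.0024s0079, which holds most counts of the orthogroup, had 92.7, 82.7 and 82.7 CPM in submerged libraries, against 86.4, 93.5 and 90.2 CPM in controls, and its log2 fold change was -0.07 ± 0.08 (0.12 with total counts alone). Of the other upregulated members, Roisl.0024s0076 was no longer called without control replicate 2 (log2 fold change of 1.33), submerged replicate 2 (1.37) or submerged replicate 3 (1.54), and Roisl.0024s0071 was no longer called without control replicate 1 (2.97), control replicate 3 (2.98) or submerged replicate 3 (2.83). Both stand at low CPM. The counts of Roisl.0024s0060, Roisl.0024s0067, Roisl.0024s0076 and Roisl.0024s0079 were not whole in any library of 48 h. Those of Roisl.0024s0063, also upregulated, were not whole in 1 library. The division of reads among these genes is thus uncertain.

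All 4 tested genes of OG0015384 were upregulated by nearly the same factor, with log2 fold changes between 3.12 and 3.15. They differ in coding length, and the table holds 7 genes of this orthogroup in all. The counts of Roisl.0082s0055 and Roisl.0195s0004 were not whole in 4 libraries each, so that the division of their reads is uncertain. Roisl.0189s0112 (1287 bases) had 284.5, 263 and 265.5 CPM in submerged libraries, against 44.9, 20.6 and 26.6 CPM in controls, and Roisl.0072s0015 (1380 bases) had 13.1, 11.8 and 10.7 CPM in submerged libraries, against 2.04, 1.08 and 1.04 CPM in controls. Control replicate 1 was the highest control in both genes. The summed orthogroup had 432, 396.5 and 405 CPM in submerged libraries, against 68.5, 30.5 and 40.9 CPM in controls, with a log2 fold change of 3.14 ± 0.29.

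Among orthogroups with many downregulated genes, OG0000022 was lowered in all 6 of its tested genes, whose coding lengths are 273 or 276 bases. In 3 of them, Roisl.0210s1503, Roisl.0210s1507 and Roisl.0210s1510, no submerged library had a count, against 385, 537 and 122 counts over the control libraries. Roisl.0210s1510 had 2.12, 0.919 and 0.948 CPM in controls. Roisl.0210s1512 had 2.499, 1.218 and 2.28 CPM in submerged libraries, against 25.1, 27.0 and 26.6 CPM in controls, with a log2 fold change of -3.72 ± 0.20. The counts of all 6 genes were not whole in 3 or more libraries, so that the division among them is uncertain. The sum was 3.56, 2.22 and 3.81 CPM in submerged libraries, against 67.9, 67.7 and 72.7 CPM in controls, with a log2 fold change of -4.44 ± 0.19.

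OG0000012 had 7 tested genes with identifiers between Roisl.0213s0195 and Roisl.0213s0207, and 5 of them were downregulated. Roisl.0213s0204 had 0.739, 0.731 and 0.974 CPM in submerged libraries, against 11.01, 14.28 and 16.7 CPM in controls, with a log2 fold change of -4.08 ± 0.26. Roisl.0213s0206 was listed with the same values as Roisl.0213s0204, so that this pair of copies gives only 1 measurement. Roisl.0213s0205, which lies between them in numbering, was not called, with 0.845, 1.14 and 0.855 CPM in submerged libraries, against 0.985, 1.87 and 2.43 CPM in controls. Its groups overlapped, and its log2 fold change was -0.90 ± 0.60.

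**Figure D5:**
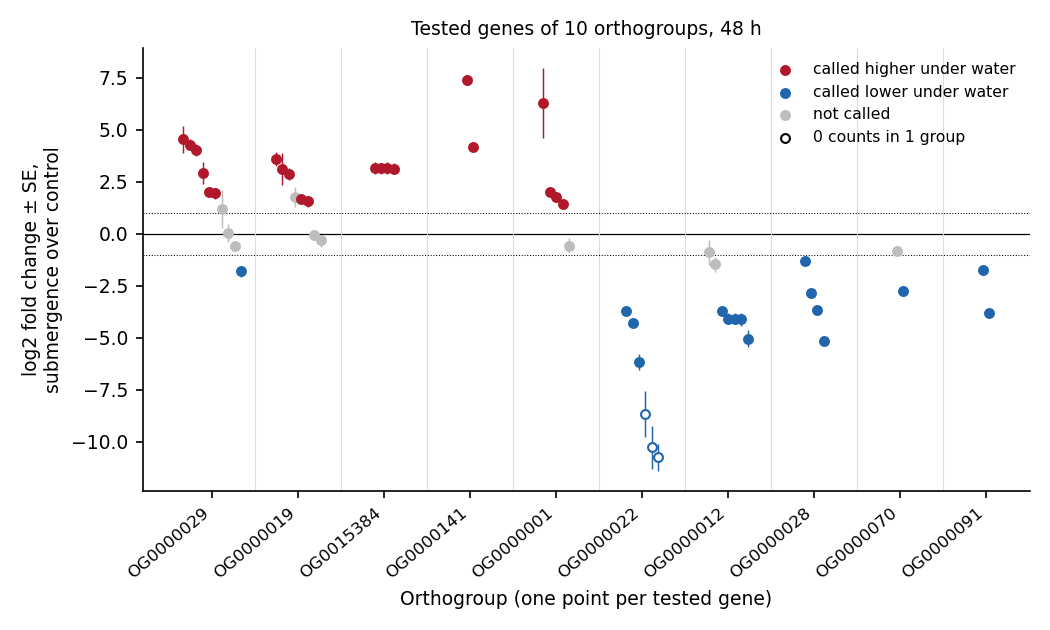
The log2 fold change of submergence over control (y axis, with SE as bars) is shown for each tested gene of 10 orthogroups (x axis), as red points for upregulated, blue points for downregulated and grey points for genes not called. Open points are 3 genes of OG0000022 with 0 counts under water, whose fitted value depends on the prior count, and the dotted lines mark log2 fold changes of 1 and -1. In OG0000028 all 4 genes lie below -1, and in OG0000029 genes lie on both sides of 0.

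Most of the response at 48 h was also found at 24 h, in libraries with controls of their own. Of the 2583 upregulated genes, 2044 (79.1%) were upregulated at 24 h as well, and these are 84.8% of the genes upregulated at 24 h, when 22.2% of all tested genes were called. Of the 2781 downregulated genes, 1885 (67.8%) were downregulated at 24 h, which is 86.7% of the 24 h list. The 539 upregulated genes without a call at 24 h had a median log2 fold change of 1.60 at 48 h and 1.09 at 24 h, and the 896 downregulated ones had -1.71 at 48 h and -1.05 at 24 h. The difference between the responses, tested against no change, passed for only 50 of these 539 and 201 of these 896 genes, so that for most of them no difference between the times was called. Over all tested genes the difference passed for 1059 (5.14%), 441 with a higher and 618 with a lower log2 value at 48 h, a number that, when a library was left out, lay between 385 (without submerged replicate 2 of 48 h) and 1323 (without submerged replicate 1 of 24 h).

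Beyond a log2 difference of 1, the response at 48 h differed from that at 24 h in 3 genes (0.0146%), all of them lower at 48 h, and in 0 genes it was higher (edgeR's quasi-likelihood test, 398 genes at an unadjusted p under 0.05). Roisl.0074s0280 (OG0000041, 489 bases) had 3.87, 2.03 and 5.01 CPM in submerged libraries, against 517, 272 and 268 CPM in controls at 48 h, a log2 fold change of -6.59 ± 0.41. At 24 h it had 73.0, 56.2 and 52.5 CPM in submerged libraries, against 318, 211 and 172 CPM in controls, with a log2 fold change of -1.95 ± 0.32. The difference was -4.64 ± 0.48 (adjusted p = 0.00955), and the counts were not whole in any library of 48 h. The same holds for the counts of its neighbour in numbering and orthogroup, Roisl.0074s0279. That gene averaged 299 CPM in submerged and 2663 CPM in control libraries of 48 h, with a log2 fold change of -3.15 ± 0.37, and -1.35 at 24 h. How much the division of reads adds to the difference was not tested. Roisl.0074s0279 and the other 2 of the 3 genes were added after their values were seen.

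Roisl.0115s0271 (OG0013036, 2352 bases) had 1.30, 1.08 and 1.38 CPM in submerged libraries, against 7.55, 9.71 and 8.44 CPM in controls at 48 h. At 24 h it had 6.60, 7.42 and 6.57 CPM in submerged libraries, against 7.51, 7.89 and 8.53 CPM in controls, so that the decrease was seen at 48 h and not at 24 h (log2 difference of -2.56 ± 0.18, adjusted p = 0.00367). Roisl.0189s0178 (OG0010608, 966 bases) had 0.669, 0.217 and 0.547 CPM in submerged libraries, against 19.9, 19.2 and 18.8 CPM in controls at 48 h. Its log2 fold change was -5.36 ± 0.21 at 48 h and -2.08 ± 0.16 at 24 h, when it was already downregulated (log2 difference of -3.28 ± 0.27, adjusted p = 0.00367).

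All 43 DEGs that were named by rule had the same direction at 24 h. Over all DEGs, the median log2 fold change at 24 h was 2.04 for upregulated and -1.86 for downregulated genes. The named genes were mostly picked for large changes at 48 h, so that their number does not set them apart from other DEGs. Roisl.0019s0459 had a log2 fold change of 5.59 ± 0.17 at 48 h and 5.19 ± 0.16 at 24 h, and Roisl.0213s0695 had 7.40 ± 0.23 at 48 h and 6.09 ± 0.21 at 24 h. In OG0000028 all 4 genes were lower at 24 h too, with log2 fold changes of -3.06, -2.27, -4.23 and -1.03 for Roisl.0213s0255, Roisl.0213s0254, Roisl.0028s0848 and Roisl.0028s0847. Roisl.0021s0238 is an example of the opposite order in time, with -7.69 ± 0.15 at 48 h and -9.31 ± 0.17 at 24 h.

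*R. stylosa*, whose reads had been assigned to the *R. islandica* transcripts, responded in the same direction in many of these genes. Of 2579 upregulated genes in a model of both species, 1226 were also upregulated in *R. stylosa* at 48 h and 21 were downregulated there. Of 2781 downregulated genes 1084 were also downregulated and 36 upregulated. Of all genes, 9.69% were upregulated and 8.69% downregulated in *R. stylosa*, 18.4% in all. The upregulated genes had a median log2 fold change of 2.22 in *R. islandica* and 1.39 in *R. stylosa*, and the downregulated genes had -2.29 in *R. islandica* and -1.17 in *R. stylosa*. These genes were chosen by their change in *R. islandica*, so that neither these medians nor the following counts of stronger and weaker responses test which species responded more. The difference between the species beyond a log2 value of 1 was called for 8.27% of all genes (37.8% against no difference), and it was called for 397 upregulated genes with the stronger and 43 with the weaker response in *R. islandica*, and for 647 and 30 downregulated genes.

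Some leading genes differed between the species in the test of that difference. The CPM of *R. stylosa* were scaled in the model of both species and those of *R. islandica* in its own, so that levels across species are approximate. Roisl.0002s0264 had 15.9, 9.34 and 24.7 CPM in submerged *R. stylosa*, against 20.9, 16.0 and 24.2 CPM in its controls, with a log2 fold change of -0.29 ± 0.34. Its level in *R. stylosa* thus lay between the levels of submerged and control *R. islandica*, and the difference in response was 10.19 (adjusted p = 3.71e-09). Roisl.0021s0238 had 3.43, 1.36 and 1.43 CPM in submerged *R. stylosa*, against 0.673, 1.25 and 1.13 CPM in its controls, near the level of submerged *R. islandica*, and the difference in response was -8.72. Roisl.0019s0459 had no count in any *R. stylosa* library of 48 h, and Roisl.0213s0694 had 4 counts over the submerged and 0 over the control libraries. The part of the assignment to transcripts of another species in such low counts was not tested.

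In OG0000028 the decrease was smaller in *R. stylosa* for 3 of the 4 genes. Roisl.0213s0255 had 4210, 4492 and 3606 CPM in submerged *R. stylosa*, against 6729, 6807 and 7350 CPM in its controls, a log2 fold change of -0.76 ± 0.14 and a difference of -2.94 between the species. Roisl.0213s0254 and Roisl.0028s0848 differed by -2.55 and -3.96 on the log2 scale, both called, while Roisl.0028s0847 differed by -0.45 and was not called. How much the uncertain division of reads among these copies adds to the differences was not tested. Other leading genes changed much in both species: Roisl.0044s0026 had a log2 fold change of -9.41 ± 0.26 in *R. islandica* and -7.83 ± 0.37 in *R. stylosa*, and Roisl.0091s0971 had 8.70 ± 0.49 in *R. islandica* and 7.90 ± 0.54 in *R. stylosa*. For these 2 genes the difference between the species was not called.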

How the data were processed

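RNA of young leaves was selected for polyadenylation and sequenced as paired ends. The deposited values are estimated counts (expected counts): the authors checked the reads with FastQC (0.12.0) and assigned them with kallisto to the transcripts of the *R. islandica* annotation, without normalization, beside the orthogroup and the length of each transcript. Replicates were kept apart as separate libraries, and whether each holds a single plant or a pool of plants is not given by the labels. The column names carry 1 or 2, read as the harvests at 24 and 48 h in the labels. Isoform counts were added per gene, which concerned 1699 genes, and rounded. At 48 h, 11.5% of transcript values were not whole numbers (tolerance 0.001), since kallisto divides reads between similar transcripts.

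Differential expression was tested in R 4.3.3 with edgeR 4.0.16 by filterByExpr, TMM, estimateDisp, glmQLFit and glmTreat at a log2 fold change of 1 with Benjamini-Hochberg adjusted p under 0.05, over 12 *R. islandica* libraries in 4 groups of 3, with a common biological coefficient of variation of 0.137. This replaces the authors' DESeq2, which was run in version 1.42.0 as an alternative. The species were compared in a model of all 24 libraries. SEs were derived from the quasi-likelihood F statistic. The spread used log2 CPM with a prior count of 2. Scripts were tested on simulated data. The alternatives were other scalings, filters, sets of libraries, thinning, single transcripts, a replicate block and each library left out. Chi-square per degree of freedom between replicates was 11.4 to 41.8, where a repeat of the same library would give about 1. The p values measure the spread between these samples, which the paper calls biological replicates and the labels do not describe further.

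Named genes were, in each direction, the 6 with the largest fold change (at least 4 counts in the lower group), the 3 most counted with 0 counts in the other group, the 6 with the largest difference in CPM, the leader of each abundance class, the members with the highest and lowest difference in mean CPM of the 3 orthogroups with the most DEGs, and the gene with the largest difference between the times, and further the 3 genes of highest mean CPM. The comparison, the rule and the classes were chosen with earlier results of these data known.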

Additional observations from a re-analysis of the deposited data

Results flagged for a closer look

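Of the 47 genes named by rule, 13 had a response at 48 h that differed between the species beyond a log2 value of 1 (edgeR's quasi-likelihood test, adjusted p under 0.05, at least 4 counts in each of the 4 groups), and 1 of the 13 also differed between 48 and 24 h. Over all genes, 8.27% were called for the species difference. The named genes were mostly chosen by their change in *R. islandica*, so that their number does not test how far the species differ. The difference of *R. islandica* minus *R. stylosa* was 10.19 for Roisl.0002s0264, 3.04 for Roisl.0024s0060 and 2.74 for Roisl.0213s0695, which were upregulated. Among the downregulated genes it was -11.48 for Roisl.0012s0322, -8.72 for Roisl.0021s0238, -5.69 for Roisl.0018s0010, -5.28 for Roisl.0004s0432, -3.40 for Roisl.0016s0066 and -3.18 for Roisl.0074s0308. Within OG0000028 it was -3.96 for Roisl.0028s0848, -2.94 for Roisl.0213s0255 and -2.55 for Roisl.0213s0254. For Roisl.0074s0280 it was -7.12, and the response at 48 h minus that at 24 h was -4.64 in *R. islandica*. In *R. stylosa*, Roisl.0012s0322 had 46 counts over the submerged libraries, against 8 over the controls. Its log2 fold change there was 2.62 ± 0.88, opposite in sign but not called at these low counts. Counts were not whole in 3 to 6 *R. islandica* libraries of 48 h for Roisl.0024s0060, Roisl.0213s0695, Roisl.0021s0238, Roisl.0074s0308, Roisl.0074s0280 and those of OG0000028. The division of their reads is uncertain. In *R. stylosa* almost all counts of OG0000141 fell on Roisl.0213s0695, with a log2 fold change of 4.65 ± 0.37. The sum of OG0000141 in *R. islandica* had 4.95 ± 0.15, and its species difference was not tested.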

How the results depend on the processing

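The numbers of upregulated and downregulated genes stayed within 1.5 times their value under every alternative that was run, between 4302 (DESeq2 on the 6 libraries, 4250 of them shared) and 7454 (fold change cut after testing against no change) in all, and between 4883 and 5567 when a library was left out. Within 48 h, same-numbered submerged and control libraries showed little in common (correlations of -0.00335, 0.108 and -0.0178). Whether same-numbered libraries go together across 24 and 48 h was not checked in this way. With the replicate block 5505 genes were called, 5315 of them shared, and the block raised the difference between 48 and 24 h to 5 genes beyond the threshold and 1625 genes against no change. That last number was 385 without submerged replicate 2 of 48 h and 1323 without submerged replicate 1 of 24 h, with 418, 457, 480, 621, 643, 672 and 674 without control replicates 2 and 3 of 24 h, submerged replicate 3 and control replicate 1 of 48 h, submerged replicates 3 and 2 of 24 h and control replicate 3 of 48 h. The cause was not tested. The submerged minus control share of counts was -6.06 percentage points for the 10 and -9.13 for the 1000 most counted genes, where it was -11.7 for 100. Of the named genes, Roisl.0024s0079 changed sign (0.12) and Roisl.0028s0847 lost its call (-1.13) with total counts alone, and the other 984 of 986 values kept direction and call. The classes under other scalings were added after seeing the data. Genes under 1 CPM had a median SE of 0.46, against 0.14 over all tested genes, which limits what can be called at their depth.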

Other observations

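Orthogroups that the table marks as universal, which the study used to compare several species, held 18811 of the tested genes, and 26.2% of these were called, 46.9% of them upregulated. Of the 1798 genes outside universal orthogroups 24.2% were called, and 62.1% of these were upregulated. Genes of orthogroups with 6 to 10 *R. islandica* genes were called most often (36.9% of 260), and those of orthogroups with 11 and more were called least (17.9% of 123), against 25.6% of 16675 genes that are alone in their orthogroup. These shares were not tested.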
